A study of Homo sapiens with 27 samples.

Results

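The replication-dependent histone genes supply most of the core and linker histones that package newly made DNA. They were taken as every row of the 2 raw count tables whose symbol has the form H1-1 to H1-6, H2AC, H2BC, H3C or H4C with a number. This gave 66 genes of 67130, of which 6 encode the linker histone H1, 16 encode H2A, 17 encode H2B, 13 encode H3 and 14 encode H4. All 5 classes are therefore measured. Of the 66 genes, 55 lie in the large cluster on chromosome 6 (HIST1, chr6:25726132-27893843) and 11 in the smaller one on chromosome 1 (HIST2, chr1:149782689-149887916; GRCh38, GENCODE 29).

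The libraries are 27 RNA-seq samples from cell lines that all lack their own ARID1A, which is part of the BAF complex that remodels chromatin. In 293T, an embryonic kidney line with the SV40 large T antigen, 18 libraries form 6 groups of 3: the knockout alone (KO), or the knockout with Flag-tagged ARID1A put back by lentivirus as wild type (WT) or as the missense forms V2084D, G2087E, G2087R or K2025E. A further 9 libraries labelled Huh7, a liver cancer line, form 3 groups of 3: WT, V2084D, and V2084D with a knockdown of STUB1, a chaperone-linked ubiquitin ligase (shSTUB1). There is no Huh7 group without added ARID1A. Neither the number of clones nor the origin of the replicates (separate cultures or repeats of 1) is given, so p-values measure the spread between these samples only.

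Replication-dependent histone mRNAs are made in S phase, and their supply is tied to DNA synthesis. They are known for ending in a conserved stem-loop in place of a poly(A) tail. The stem-loop is bound by SLBP, which directs cleavage, export and translation of the mRNA. Several members also have a longer polyadenylated form, made when transcription reads past the stem-loop. The labels do not say whether RNA was selected by its tail, and the counts per gene do not separate the 2 forms.

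The element that marks these genes was found with the pattern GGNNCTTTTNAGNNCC in the GENCODE 29 transcript models of 27 of the 66 members. The other 39 models held no match to these letters in their annotated extent. The same pattern occurred in 90 of 206604 other transcripts (0.0436%). The stem-loops are shown because they group the members by class, with the loop in capitals and the stem in lower case, read 5′ to 3′ as DNA:
15 members of H2A, H2B and H3: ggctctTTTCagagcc
H2BC4, H2BC5, H2BC7 and H3C8: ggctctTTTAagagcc
H2AC11: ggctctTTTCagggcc
H4C2, H4C5, H4C8 and H4C11: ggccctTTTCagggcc
H4C9, H4C14 and H4C15: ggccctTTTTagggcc
The 7 H4 genes with a match thus carried their own stem sequence, and H4C9, H4C14 and H4C15, the highest H4 genes per length averaged over all libraries, shared 1 loop. In 19 members the model ran at least 100 bases past the stem-loop, and in 22 a poly(A) signal (AATAAA or ATTAAA) lay in the last 50 bases of a model.

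The stretches upstream of a pair of start sites are printed because the results turn on the genes beside them (250 bases, RefSeq, GRCh38.p14, minus strand). H2BC12 (chr6:27146859-27147108) was the most abundant member. The stretch at H2BC21 (chr1:149886683-149886932) spans the whole gap to the divergent gene H2AC20, whose start lies on the opposite strand with 235 bases between them. Capitals mark the octamer ATTTGCAT, CCAAT and TATAAA on either strand, and overlapping matches run together:
H2BC12: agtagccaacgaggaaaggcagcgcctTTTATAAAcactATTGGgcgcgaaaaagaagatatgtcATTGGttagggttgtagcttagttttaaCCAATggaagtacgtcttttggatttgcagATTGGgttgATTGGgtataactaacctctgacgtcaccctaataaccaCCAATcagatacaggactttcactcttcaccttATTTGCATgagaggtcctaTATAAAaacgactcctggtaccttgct
H2BC21: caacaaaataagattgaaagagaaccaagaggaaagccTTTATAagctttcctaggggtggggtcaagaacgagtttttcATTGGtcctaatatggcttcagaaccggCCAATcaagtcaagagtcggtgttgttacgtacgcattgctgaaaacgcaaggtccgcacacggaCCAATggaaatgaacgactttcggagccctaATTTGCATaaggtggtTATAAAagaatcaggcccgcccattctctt
Of 61 members with a promoter in the RefSeq table, 52 held CCAAT, against 33.0% of all 27305 promoters of this length, and 41 held TATAAA, against 11.1%. The octamer was found in 14 of 17 H2B promoters, 11 of 15 H2A, 1 of 11 H3 and 0 of 6 H1 and 0 of 12 H4, against 1.66% of all promoters. The 1 H3 window, that of H3C4, is the same stretch as that of H2AC7 (chr6:26199294-26199543), so it is counted in both classes. Windows of several divergent H2A and H2B neighbours also overlap and hold the same octamer. An example is H2AC11 (chr6:27132793-27133042) with H2BC11 (chr6:27132796-27133045). The H2A and H2B counts are thus not separate findings. A match describes these letters only.

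Total counts ran from 33429483 to 55539529 per 293T library and from 59124374 to 79915177 per Huh7-labelled library. ARID1A was at 119 to 194 CPM in KO and at 5727 to 116300 CPM in the 293T libraries given ARID1A, except G2087R replicates 1 and 2 (294 and 326 CPM), which are called by their label below. In the Huh7-labelled libraries ARID1A stood at 188 to 390 CPM, so its re-expression could not be checked against a knockout there. ARID1A was at 329, 354 and 390 CPM in Huh7 WT and at 264, 270 and 211 CPM in Huh7 V2084D. That is a log2 difference of -0.55 (SE 0.183, adjusted p = 0.0325, edgeR test as below). In 293T it was at 5727, 9391 and 63180 CPM in WT and at 52920, 42890 and 116300 CPM in V2084D. The Huh7 WT and V2084D groups thus differ in ARID1A amount as well as form. STUB1 fell by 1.84 on the log2 scale (SE 0.103, adjusted p = 8.78e-06) in shSTUB1 against V2084D. Of 20 liver markers, 0 averaged at least 1 CPM over the Huh7-labelled libraries and 3 did in 293T, and the list summed to 2.75 to 8.08 CPM and 4.26 to 13.2 CPM. APOB, a lipoprotein of liver, was at 2.24 ± 0.922 CPM in Huh7 WT (SD, n = 3) and at most 0.0630 CPM in 293T. The liver markers ALB, TF and TAT went the other way. Their log2 differences in Huh7 WT minus 293T WT were -4.14 (SE 0.680), -2.41 (SE 0.508) and -2.94 (SE 0.924). ALB was at 0, 0.199 and 0.225 CPM in Huh7 WT and at 2.18, 1.95 and 3.63 CPM in 293T WT. Of 12 genes chosen as marks of 293 cells, 11 averaged at least 1 CPM in the Huh7-labelled libraries and 12 in 293T, with sums of 479 to 1004 CPM and 535 to 1054 CPM. No liver marker reached 10 CPM in any of the 27 libraries, and the Huh7 label is used below as given. RNAs without a poly(A) tail (15 genes) summed to 1297 CPM in shSTUB1 replicate 2 and to 491 CPM in G2087R replicate 2, against 45.4 to 239 CPM in the other 25 libraries.

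The members were weakly represented in all 27 libraries. They took 0.0261% to 0.0450% of all counts in 293T and 0.00514% to 0.0103% in the Huh7-labelled libraries, and 2 members, H2BC1 and H4C13, had no count in any library. Mean levels of at least 1 CPM (CPM, counts scaled to the library total after TMM normalization of all 27 libraries together) were reached by 25 members in 293T and by 17 in the Huh7-labelled libraries. H2BC12, an H2B gene, alone held 25.1% of the member counts in 293T and 17.99% in the Huh7-labelled libraries, and the 5 leading members held 60.2% and 49.8%. Of the 22 members whose model has a poly(A) signal, 19 averaged at least 1 CPM in 293T, against 6 of the other 44, which included H2BC12 and the linker histone gene H1-2. In the Huh7-labelled libraries the same shares were 12 of 22 and 5 of 44.

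Levels of different genes can be compared only per length. In CPM per kilobase of GENCODE 29 exon, averaged over 27 libraries, the order was H2BC12 (166), H1-2 (37.1), the H2A genes H2AC18 (19.3) and H2AC19 (18.8), the H4 genes H4C15 (14.1) and H4C14 (14.04), H2BC5 (9.36), H4C9 (9.11), H2AC6 (6.31), H2BC11 (5.32), H2BC21 (4.24) and the H3 gene H3C15 (4.11). This mean is set mostly by 293T, where levels are higher, and the order differs by line. In 293T H3C15 (5.70) stood above H2BC21 (5.41). In the Huh7-labelled libraries H2BC5 (2.68) stood above H4C15 (2.37), H4C14 (2.29) and H4C9 (2.17), and H2BC21 (1.92) above H2BC11 (1.49) and H2AC6 (1.18). The first place rests on a GENCODE 29 model of 381 bases for H2BC12. RefSeq gives H2BC12 a span (chr6:27138293-27146858) that encloses H4C9. Its level per length would be lower with longer exons, and reads over H4C9 may have been given to either gene.

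Sequence copies limit what can be said of single members. All 50-base stretches of H3C14 and H3C15 occur in at least 1 other gene, as do 97.5% of those of H4C14 and 100% of those of H2AC18. The gene that shared most was the partner in each case: H3C14 and H3C15 for each other, H4C15 for H4C14 and H2AC19 for H2AC18. The counts of H2AC18 stood at 0.971 to 1.04 times those of H2AC19 over all 27 libraries, and those of H3C14 at 0.922 to 1.14 times those of H3C15. H4C14 stood at 0.927 to 1.01 times H4C15 in 293T and at 0.643 to 1.03 times in the Huh7-labelled libraries. Counts of members below include both copies of each pair, and the counts with 1 copy are given where any member was called. In all, 15 members shared over 50% of their 50-base stretches with another gene, and 14 overlapped exons of a neighbour. H2BC12 shared 74.1% with H2BS1, which had 1 to 35 counts per library, at most 2.79% of the H2BC12 count.

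**Figure D1:**
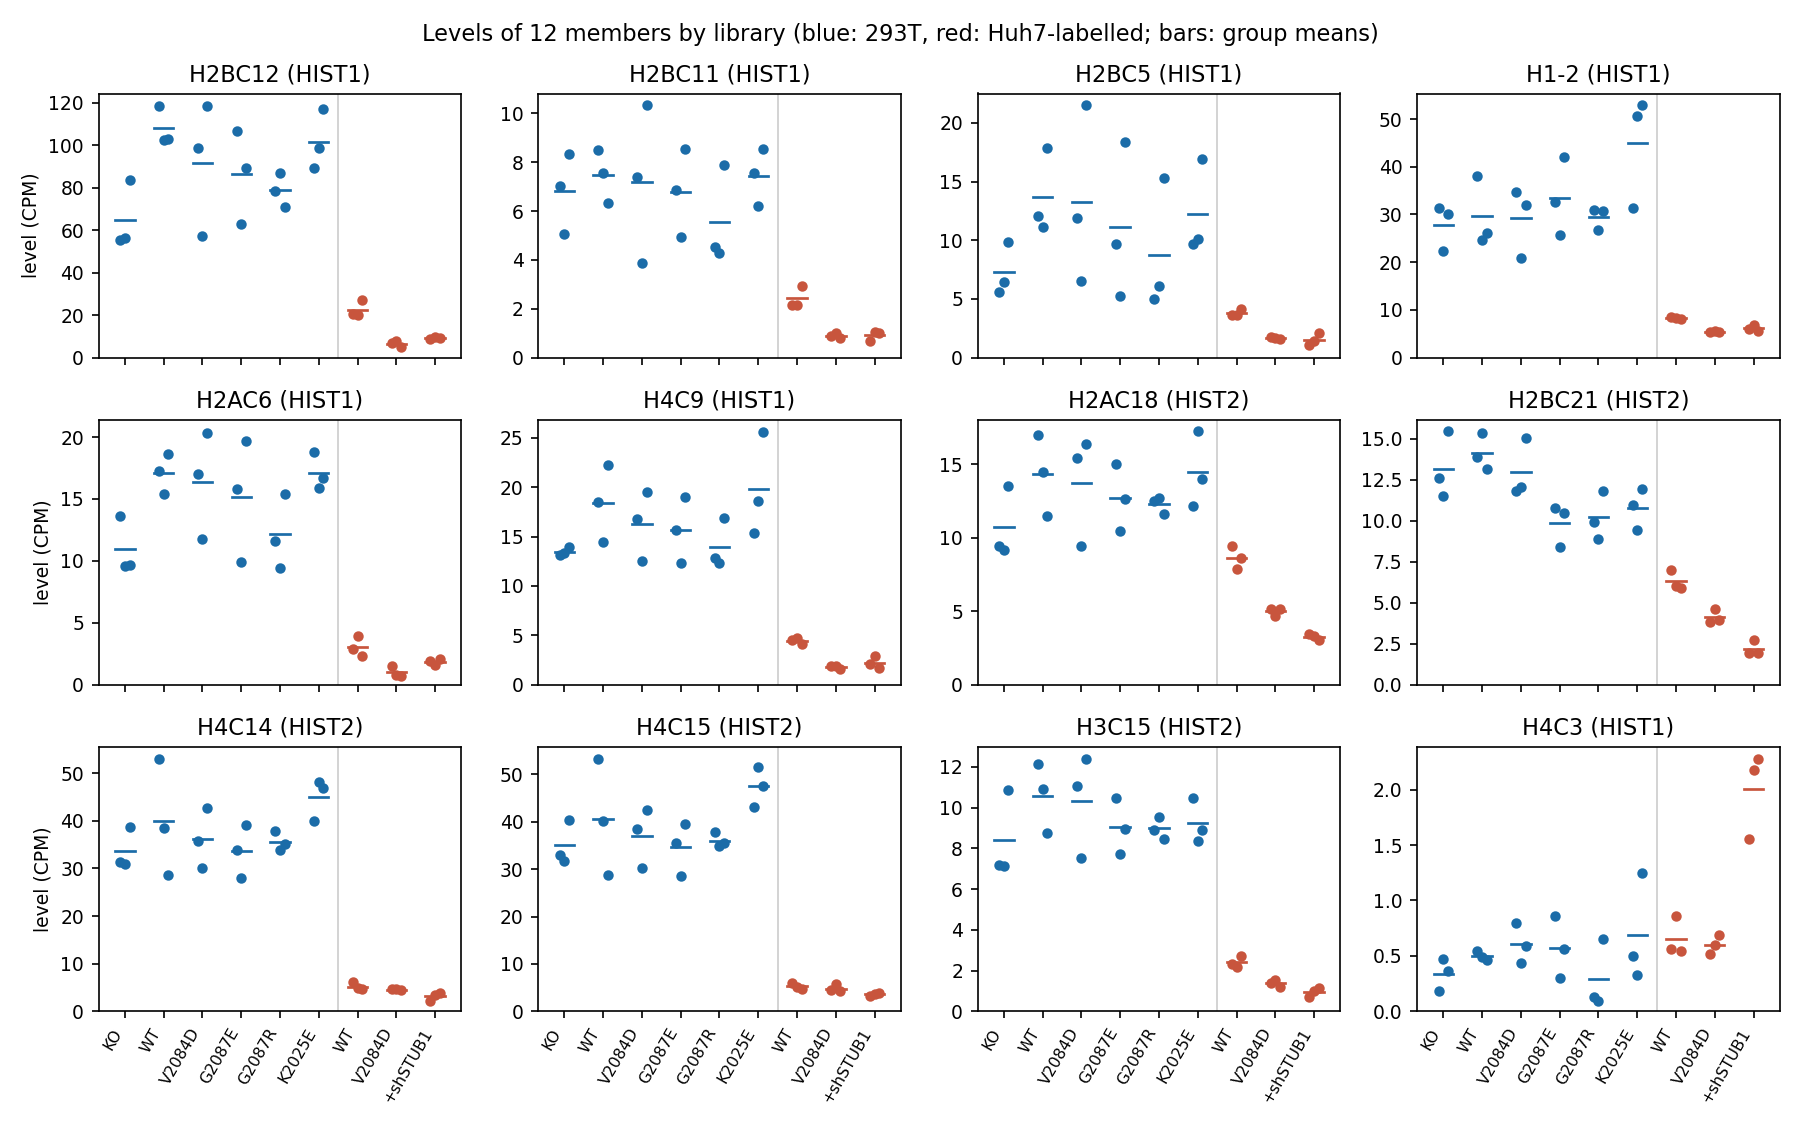
Level in CPM of 12 members in each library of the 9 groups; points are libraries, horizontal bars are means of 3, and each panel has its own axis from 0. H2BC12 ranges from 55.2 to 119 CPM in 293T and from 5.12 to 26.9 CPM in the Huh7-labelled libraries, and H4C3 alone of these 12 is highest with shSTUB1.

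In 293T, no member passed the test between the knockout and any form of ARID1A, or between WT and any mutant form. Of the 66 members, 49 passed the count filter there. Called here means an adjusted p below 0.05 in edgeR's quasi-likelihood F test with Benjamini-Hochberg adjustment over 23201 genes, and SE is the standard error of the log2 difference. The count of members called was 0 of 49 in each of WT, V2084D, G2087E and G2087R minus KO, where 0% of all genes tested were called, and 0 of 49 in V2084D and G2087E minus WT, again with 0% of all genes. It was 0 of 49 in G2087R minus WT and in K2025E minus WT, where 0.00431% of all genes were called. In K2025E minus KO it was also 0 of 49, although 12.9% of all genes tested were called. At an unadjusted p below 0.05, members numbered 7 in WT, 3 in V2084D, 2 in G2087E, 0 in G2087R and 7 in K2025E minus KO, where 11%, 4.83%, 5.66%, 4.31% and 28.3% of all genes tested had such a p. They numbered 1, 3, 6 and 2 in V2084D, G2087E, G2087R and K2025E minus WT, against 2.01%, 2.05%, 4.45% and 8.27% of all genes. DESeq2 called 3 of 49 members in K2025E minus KO, all higher, where it called 19.3% of all genes (10.1% higher), and 0 members in the other 8 comparisons.

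H2BC12, the most abundant member, had its lowest group mean in KO. It stood at 55.2, 56.1 and 83.4 CPM in KO and at 118, 103 and 103 CPM in WT, so the groups did not overlap. It stood at 98.8, 57.3 and 119 CPM in V2084D and at 89.3, 98.8 and 117 CPM in K2025E. The difference of WT from KO was 0.74 on the log2 scale (SE 0.239, adjusted p = 0.343), and that of K2025E from KO 0.65 (SE 0.239, adjusted p = 0.0790).

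The smallest adjusted p among members in K2025E minus KO belonged to H4C12, an H4 gene of HIST1. It was at 0.294, 0.694 and 0.730 CPM in KO and at 1.23, 2.23 and 1.79 CPM in K2025E, a log2 difference of 1.61 (SE 0.544, adjusted p = 0.0577). All 3 K2025E libraries lay above the 3 KO libraries. All 50-base stretches of H4C12 occur in at least 1 other gene, most of all in H4C11, whose difference was 1.34 (SE 0.536, adjusted p = 0.106). H1-2, a main linker histone, gave 0.69 (SE 0.247, adjusted p = 0.0705) and H2AC6, an H2A gene, 0.64 (SE 0.255, adjusted p = 0.102). With the replicate number as a block 5 of 49 members were called in this comparison, all higher, where the block called 15.5% of all genes (8.54% higher). Among 33 DNA replication and S phase genes, 7 rose and 0 fell in K2025E minus KO, where 7.17% of all genes rose, such as TK1, thymidine kinase (log2 difference 1.02, SE 0.208, adjusted p = 0.00744), and CDC45, of the replicative helicase (0.70, SE 0.155, adjusted p = 0.00986).

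The members' medians in 293T moved with single libraries. In WT minus KO the median over 49 members was 0.26, and it ran from 0.07 with offsets for GC content and length to 0.49 without KO replicate 3. In V2084D minus KO it was also 0.26, and 0.00 without V2084D replicate 3. It changed sign in the other 3 comparisons with KO. G2087E minus KO gave 0.05, and -0.21 without G2087E replicate 3. G2087R minus KO gave -0.22, and 0.12 without the 2 libraries low in ARID1A. K2025E minus KO gave 0.17, and -0.31 with offsets for GC content and length. The medians over all genes tested lay between -0.02 and 0.01 in these 5 comparisons, which share the KO libraries. Against WT, the median for V2084D was -0.05 and ran from -0.25 to 0.14 over 15 alternatives. The medians for G2087E (-0.23), G2087R (-0.48) and K2025E (-0.15) stayed negative in all 15 alternatives, the closest to 0 being -0.09, -0.21 and -0.08, and these 4 comparisons share the WT libraries.

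**Figure D2:**
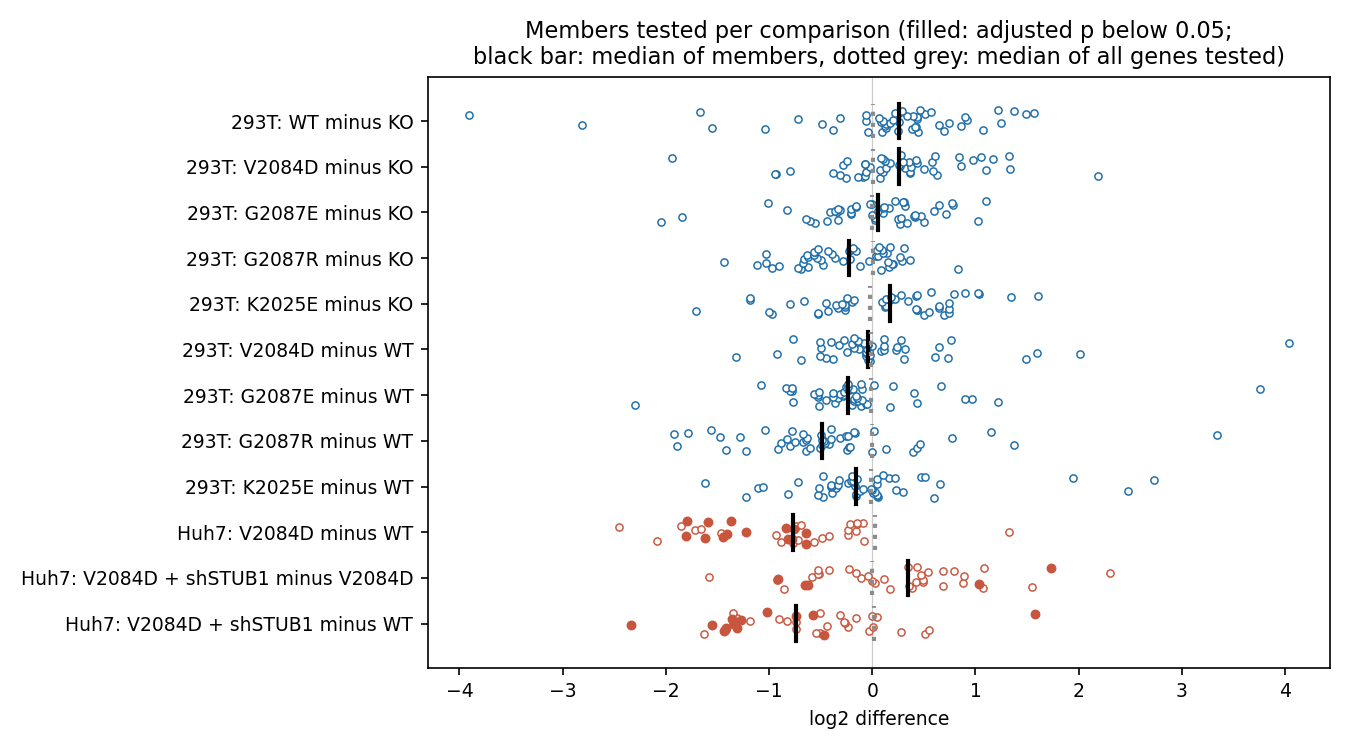
Log2 difference of each member tested in the 9 comparisons in 293T (49 members) and the 3 in Huh7-labelled libraries (39 members); filled points passed the test, the black bar is the members' median and the dotted grey bar that of all genes tested. No point is filled in 293T, and the members' median lies at -0.77 in Huh7 V2084D minus WT.

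In the Huh7-labelled libraries the members were lower with V2084D than with WT. Of 39 members that passed the filter, 14 fell and 0 rose (12 and 0 of 36 with 1 copy of each HIST2 pair), while 20% of 22510 genes tested were called lower and 22% higher. The members' median log2 difference was -0.77, against 0.03 over all genes, and 38 of the 39 values were negative. The summed level of all 66 members was 103, 99.1 and 105 CPM in WT and 56.1, 57.7 and 51.4 CPM in V2084D. Markers of cell type moved in this comparison as well. The 293 markers summed to 973, 1004 and 976 CPM in WT and to 560, 576 and 534 CPM in V2084D, with 3 of 12 called higher and 4 lower. Among them IRS4, an insulin receptor substrate, fell by 4.58 on the log2 scale (SE 0.199, adjusted p = 1.44e-07). Of 8 liver markers tested, ALB rose by 2.47 (SE 0.766), and APOB fell by 5.80 (SE 1.29) and CYP2E1 by 1.76 (SE 0.342). Their part in the result and that of the lower ARID1A level in V2084D were not tested. Here as in every bulk comparison, fewer cells in S phase and less histone mRNA per cell cannot be told apart. Nor do the counts separate the polyadenylated form of these mRNAs from the form that ends in the stem-loop.

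H2BC12 had the smallest adjusted p. Its level was 20.5, 20.02 and 26.9 CPM in WT and 6.78, 7.75 and 5.12 CPM in V2084D, 3.49-fold lower (log2 difference -1.80, SE 0.163, adjusted p = 1.21e-05). Every V2084D library lay below every WT library. Its share of the summed member level went from 19.98%, 20.2% and 25.6% in WT to 12.1%, 13.4% and 9.97% in V2084D. The H2B class as a whole had 5 of 10 tested members called lower, where 20% of all genes tested were.

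Other H2B genes of the HIST1 cluster fell alongside. H2BC11 stood at 2.18, 2.16 and 2.94 CPM in WT and at 0.878, 1.01 and 0.816 CPM in V2084D (log2 difference -1.45, SE 0.250, adjusted p = 0.000858). H2BC5 stood at 3.67, 3.63 and 4.11 CPM in WT and at 1.76, 1.66 and 1.55 CPM in V2084D (log2 difference -1.22, SE 0.243, adjusted p = 0.00206). In neither gene did the groups overlap.

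The H4 gene H4C9, which lies inside the RefSeq span of H2BC12, had 4.54, 4.68 and 4.08 CPM in WT and 1.83, 1.83 and 1.58 CPM in V2084D (log2 difference -1.37, SE 0.209, adjusted p = 0.000388). H2AC6 had 2.91, 3.95 and 2.28 CPM in WT and 1.53, 0.793 and 0.704 CPM in V2084D (log2 difference -1.62, SE 0.325, adjusted p = 0.00225). H1-2 fell from 8.55, 8.31 and 8.17 CPM to 5.44, 5.61 and 5.33 CPM (log2 difference -0.64, SE 0.123, adjusted p = 0.00173). The WT libraries were again the higher ones throughout.

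Members of the HIST2 cluster also fell, and the medians of both clusters were -0.77. H2AC18 had 9.43, 7.87 and 8.61 CPM in WT and 5.14, 4.70 and 5.12 CPM in V2084D (log2 difference -0.82, SE 0.131, adjusted p = 0.000540). Its copy H2AC19 gave -0.78 (SE 0.128, adjusted p = 0.000647). All WT libraries lay above all V2084D libraries for both. H2BC21, an H2B gene with a long tailed form, went from 7.003, 6.03 and 5.90 CPM to 3.80, 4.60 and 3.93 CPM (log2 difference -0.64, SE 0.179, adjusted p = 0.0140). The remaining members called were H2BC18, H3C14 and H3C15 in HIST2 and H4C5 and H4C8 in HIST1. Some calls rested on single libraries. H2BC21 was not called without WT replicate 1 (adjusted p = 0.0616) or V2084D replicate 1 (0.0577), H3C15 without WT replicate 3 (0.0583) or V2084D replicate 3 (0.0549), and H4C5 without WT replicate 3 (0.0600). H3C14 lost its call without WT replicate 1 or 3 or V2084D replicate 2 or 3 (0.0599 to 0.0904), and H4C8 without any WT library or V2084D replicate 1 or 3 (0.0537 to 0.0677). The H4 copies H4C14 and H4C15 did not pass: H4C14 had 6.08, 4.81 and 4.66 CPM in WT and 4.61, 4.66 and 4.40 CPM in V2084D (log2 difference -0.21, SE 0.216, adjusted p = 0.474), and these groups overlapped.

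By location, 8 of 29 tested HIST1 members and 6 of 10 tested HIST2 members fell, where 20% of all genes tested were called lower. By model, 11 of 20 with a poly(A) signal and 3 of 19 without one fell, and the medians were -0.83 and -0.72. Both copies of H2AC18 and H2AC19 and of H3C14 and H3C15 are counted among the 6 and among the 11. The share of calls in such groups also depends on their counts, and no difference between the groups was tested.

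**Figure D3:**
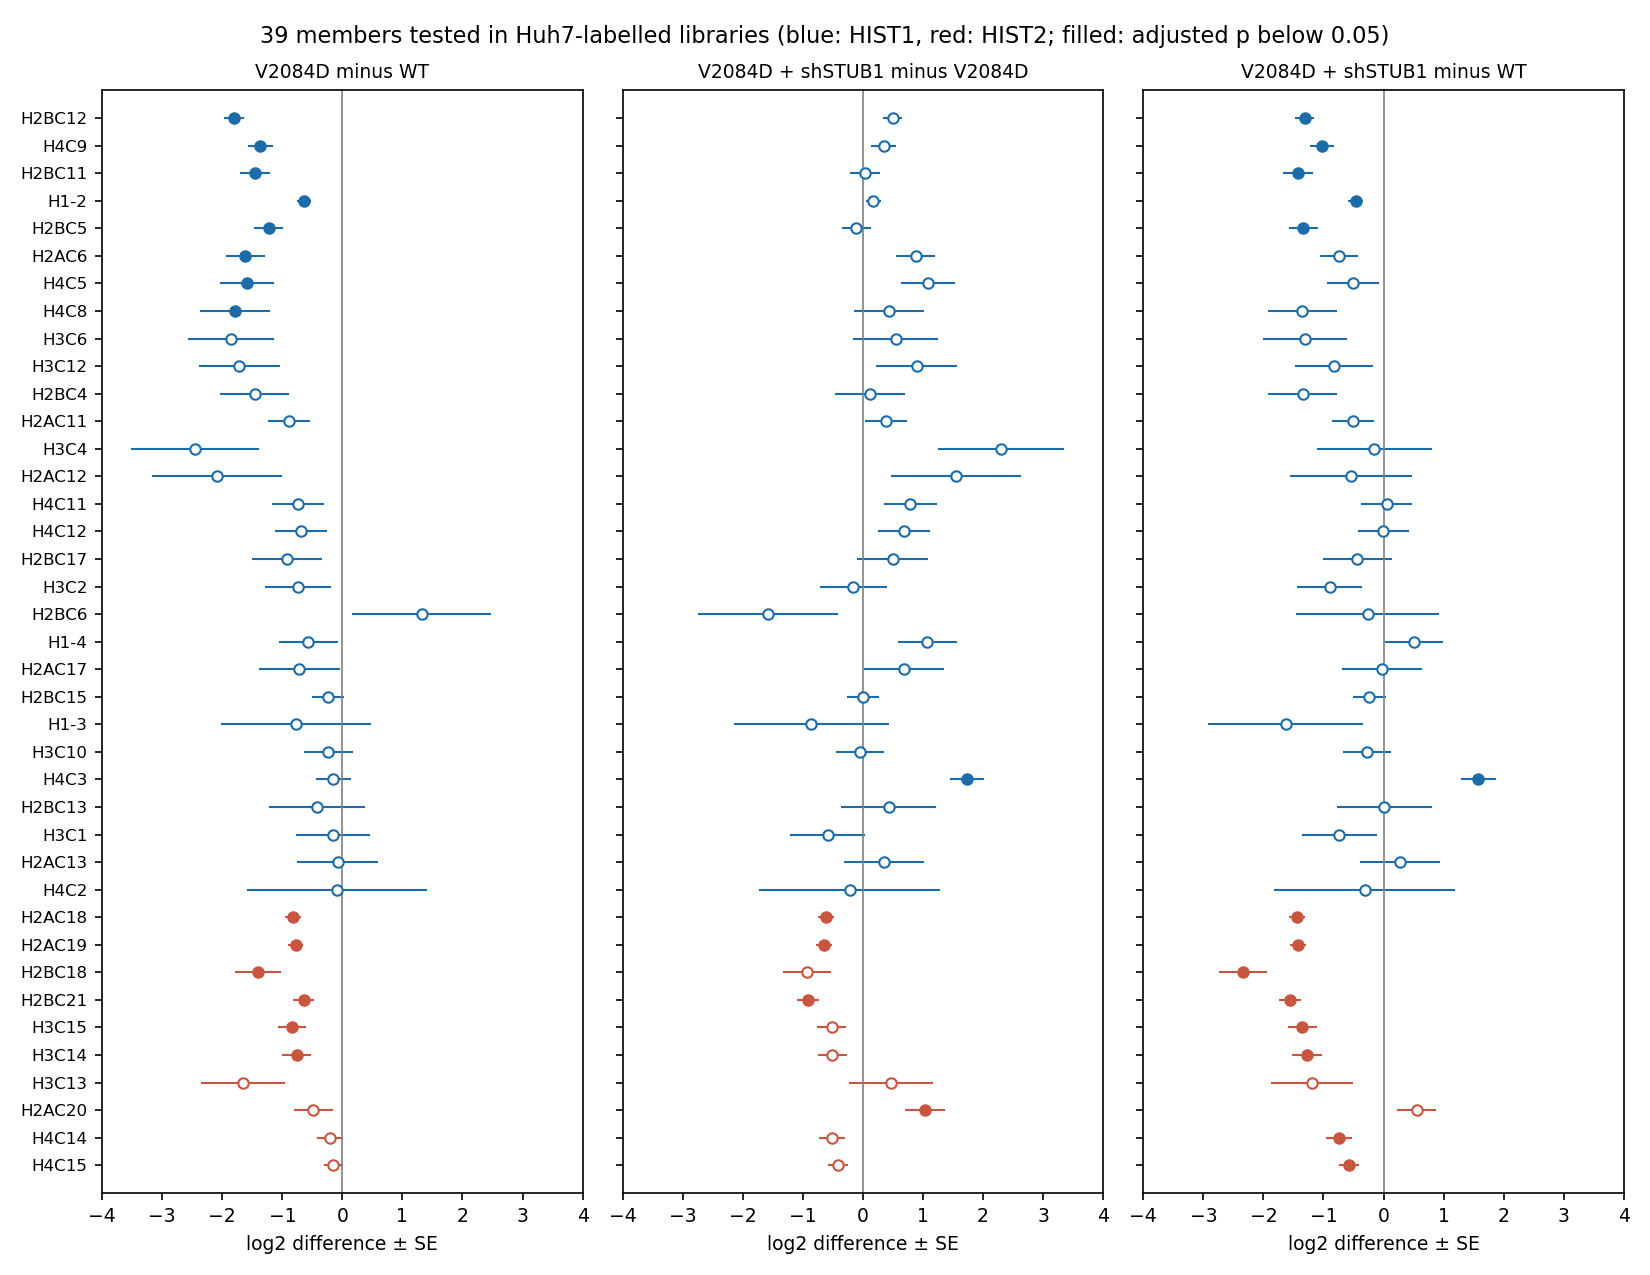
Log2 difference with its standard error for the 39 members tested in Huh7-labelled libraries, one panel per comparison, ordered within each cluster by adjusted p in V2084D minus WT; filled points passed the test. In the first panel 38 of 39 points lie left of 0, and in the second the 3 filled points on the left all belong to HIST2. The filled points on the right of the second panel are H4C3 of HIST1 and H2AC20 of HIST2.

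With the STUB1 knockdown added to V2084D, few members were called, no larger a share than of all genes. Among the few called, those that fell were all of HIST2, and those that rose came from both clusters. Of 39 members, 3 fell and 2 rose (2 and 2 of 36 with 1 copy of each pair), while 10.8% of all genes tested were called lower and 10.8% higher. The 3 that fell were H2AC18, H2AC19 and H2BC21, all of HIST2. The 2 that rose were H4C3, an H4 gene of HIST1, and H2AC20, an H2A gene of HIST2. The summed HIST2 level was 27.9, 29.02 and 26.8 CPM in V2084D and 17.8, 20.98 and 20.02 CPM with shSTUB1, while the summed HIST1 level was 28.2, 28.7 and 24.5 CPM and then 31.6, 39.3 and 34.3 CPM. HIST2 thus made up 49.7%, 50.3% and 52.3% of the summed member level in V2084D and 36.0%, 34.8% and 36.9% with shSTUB1. In WT it made up 43.2%, 40.2% and 39.02%, and in the 18 293T libraries 30.9% to 43.1%. These sums were not tested. The median difference was 0.43 over 29 HIST1 members, 22 of them positive, and -0.52 over 10 HIST2 members, 8 of them negative, against -0.00 over all genes tested. Over 14 alternatives these medians ran from 0.13 to 0.53 and from -0.66 to -0.36. The median over all 39 members was 0.35, and -0.01 without shSTUB1 replicate 3. The 10 HIST2 members include 3 near-identical pairs.

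H2AC18 went from 5.14, 4.70 and 5.12 CPM in V2084D to 3.42, 3.27 and 3.06 CPM (log2 difference -0.62, SE 0.132, adjusted p = 0.00805). H2BC21 went from 3.80, 4.60 and 3.93 CPM to 1.93, 2.73 and 1.91 CPM (log2 difference -0.91, SE 0.182, adjusted p = 0.00563). Both genes had every shSTUB1 library below every V2084D library. H4C14 and H4C15 had values of -0.52 (SE 0.217, adjusted p = 0.119) and -0.42 (SE 0.164, adjusted p = 0.0976).

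H4C3 stood at 0.518, 0.598 and 0.688 CPM in V2084D and at 1.56, 2.18 and 2.27 CPM with shSTUB1, 3.32-fold higher (log2 difference 1.73, SE 0.289, adjusted p = 0.00229). In WT it stood at 0.561, 0.857 and 0.549 CPM, so shSTUB1 was the only one of these 3 groups with H4C3 above 1 CPM. H2AC20 stood at 1.11, 0.720 and 0.528 CPM in V2084D and at 1.65, 1.80 and 1.39 CPM with shSTUB1 (log2 difference 1.03, SE 0.326, adjusted p = 0.0456). H2AC20 lost its call in 10 of 14 alternatives, among them leaving out any shSTUB1 library (adjusted p from 0.0577 to 0.109) or V2084D replicate 2 (0.133) or 3 (0.123). In the shSTUB1 replicate 2 library RN7SL1, a signal recognition particle RNA without a tail, stood at 656 CPM, against 17.1 to 34.8 CPM in the other 8. Without that library H4C3 differed by 1.67 (adjusted p = 0.00601) and H2BC21 by -1.10 (adjusted p = 0.00218).

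H2BC21 and H2AC20 start 235 bases apart on opposite strands. With shSTUB1 the first fell and the second rose, and in V2084D minus WT they had -0.64 and -0.48 (SE 0.327, adjusted p = 0.273 for H2AC20). The difference between the 2 genes was not itself tested, and the H2AC20 call is the one that depended on single libraries.

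H4C3 was the only one of 29 HIST1 members tested that passed between shSTUB1 and V2084D, which is the same V2084D group as in the comparison with WT. H2BC12 had 8.74, 9.70 and 9.23 CPM with shSTUB1, against 5.12 to 7.75 CPM in V2084D, a difference of 0.49 (SE 0.160, adjusted p = 0.0513) that missed the threshold. H2BC11 gave 0.03 (SE 0.250) and H2BC5 gave -0.11 (SE 0.243). H2AC6 had 1.93, 1.61 and 2.03 CPM, a difference of 0.88 (SE 0.322, adjusted p = 0.0803).

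Against WT, the shSTUB1 libraries had 13 members lower and 1 higher of 39 (10 and 1 of 36 with 1 copy of each pair), while 21.7% of all genes tested were called lower and 23.5% higher. The one that rose was H4C3 (log2 difference 1.58, SE 0.288, adjusted p = 0.00113). The smallest adjusted p among those that fell belonged to the HIST2 genes H2AC19 (log2 difference -1.43, SE 0.131, adjusted p = 1.07e-05), H2AC18 (-1.44, SE 0.134) and H2BC21 (-1.56, SE 0.184). The HIST1 gene H2BC12 came next (-1.31, SE 0.161, adjusted p = 7.68e-05). It stood at 20.5, 20.02 and 26.9 CPM in WT and at 8.74, 9.70 and 9.23 CPM with shSTUB1. H2BC11, also of HIST1, was called lower too, with 2.18, 2.16 and 2.94 CPM in WT and 0.695, 1.07 and 1.01 CPM with shSTUB1. H2BC18, a HIST2 gene of H2B, gave -2.34 (SE 0.401, adjusted p = 0.000765), at levels of 0.986, 1.5 and 1.56 CPM in WT and 0.208, 0.375 and 0.231 CPM with shSTUB1. Of the tested members, 8 of 10 in HIST2 and 5 of 29 in HIST1 fell. The calls of H4C14 (adjusted p = 0.0182) and H4C15 (0.0155) were lost without WT replicate 1 (0.0782 and 0.0702) or shSTUB1 replicate 1 (0.0529 and 0.0646). This comparison shares its libraries with the other 2 in the Huh7-labelled series.

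**Figure D4:**
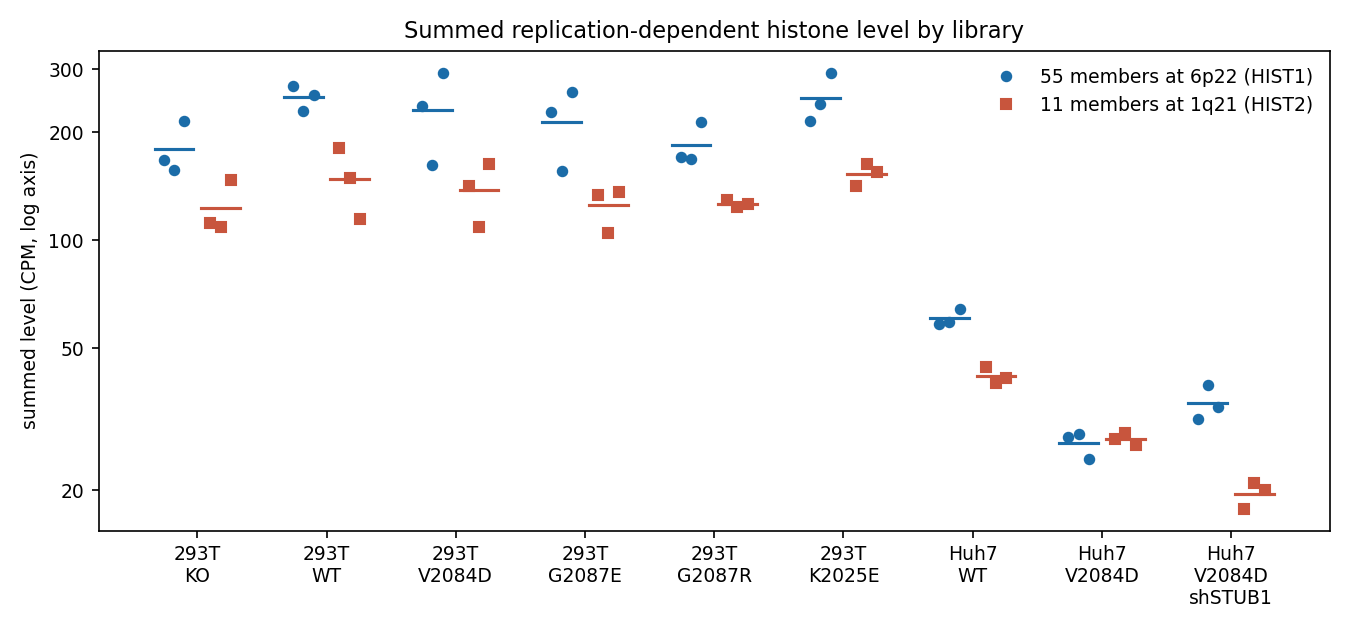
Summed level of the 55 HIST1 members (circles) and the 11 HIST2 members (squares) in each library, in CPM on a log axis; horizontal bars are means of 3 libraries. The HIST1 circle lies above the HIST2 square of the same library in every group except V2084D of the Huh7-labelled libraries. There the 2 ranges, 24.5 to 28.7 and 26.8 to 29.02 CPM, overlap. In V2084D of 293T the lowest circle (162.2 CPM) also lies just below the highest square (163.2 CPM), which is from another library.

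Between the lines, members were lower in the Huh7-labelled WT libraries than in 293T WT. In a fit of all 27 libraries, 25 of 51 members tested fell and 0 rose (22 and 0 of 48 with 1 copy of each pair), while 12.5% of 24546 genes were called lower and 10.5% higher. The members' median was -1.59 and that of all genes -0.07. The H4 copies H4C15 and H4C14 both gave -2.95, with an SE of 0.199 and 0.221 and an adjusted p of 3.27e-10 and 1.67e-09. H4C14 stood at 52.9, 38.6 and 28.6 CPM in 293T WT and at 6.08, 4.81 and 4.66 CPM in Huh7 WT. H2BC12 gave -2.26 (SE 0.232), H3C15 -2.14 (SE 0.223) and H4C9 -2.05 (SE 0.228). H2AC18 gave -0.73 (SE 0.204, adjusted p = 0.0113), a call lost without 293T WT replicate 1 (0.0713) or Huh7 WT replicate 2 (0.0559). The 2 tables differ in depth and in the labelled cell line, and the labels give no batch, so line and table cannot be told apart. ARID1A also differed between these WT groups, by -6.19 on the log2 scale (SE 1.34, adjusted p = 0.0017), and its part was not tested.

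The change from WT to V2084D differed between the lines for a few members. This was no larger a share than the 9.72% of all genes called in either direction. The difference of V2084D minus WT in Huh7 minus the same in 293T was called lower for 4 of 51 members and higher for 0 (4 and 0 of 48 with 1 copy of each pair), while 4.21% of all genes were called lower and 5.5% higher. The 4 were H2BC12 (-1.54, SE 0.317, adjusted p = 0.00279), H2AC6 (-1.53, SE 0.402, adjusted p = 0.0158), H4C9 (-1.17, SE 0.315, adjusted p = 0.0191) and H2BC11 (-1.37, SE 0.432, adjusted p = 0.0448), all of HIST1. In 293T, H2AC6 had 17.2, 15.4 and 18.6 CPM in WT and 17.0, 11.7 and 20.4 CPM in V2084D, and these ranges overlapped. ARID1A itself was called lower with V2084D in Huh7. In 293T ARID1A stood at 5727, 9391 and 63180 CPM in WT and at 52920, 42890 and 116300 CPM in V2084D. The part of ARID1A level in these differences between lines was not tested. Leaving out Huh7 V2084D replicate 3 left 1 member called, H2BC12. H2AC6 also lost its call without Huh7 WT replicate 2 (adjusted p = 0.0598) or Huh7 V2084D replicate 2 (0.0552), and H4C9 without 293T WT replicate 2 (0.0559) or 293T V2084D replicate 3 (0.0559). H2BC11 was not called in 11 of the 12 fits that left out 1 library (adjusted p from 0.0528 to 0.151).

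Genes of DNA replication and of histone supply went in both directions. Of 33 DNA replication and S phase genes tested in the Huh7-labelled libraries, 13 rose and 8 fell with V2084D against WT, where 22% of all genes rose and 20% fell, with a median of 0.03 in the list and over all genes. GINS3, of the replicative helicase, fell by 1.35 on the log2 scale (SE 0.0725) and RRM2, of ribonucleotide reductase, fell by 1.08 (SE 0.0709). E2F2, a transcription factor of the G1 to S transition, rose by 0.94 (SE 0.0593), and DTL, a substrate receptor active in S phase, rose by 0.91 (SE 0.0712). With shSTUB1 against V2084D, 15 rose and 3 fell, where 10.8% of all genes rose and 10.8% fell, with a median of 0.17, and GINS3 rose by 1.01 (SE 0.0720).

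Factors of histone mRNA transcription and processing numbered 15, of which 5 rose and 3 fell with V2084D, against the same 22% and 20% of all genes. SRRT (ARS2), which links the cap-binding complex to histone mRNA 3′ processing, had the largest change and fell by 1.82 (SE 0.0767, adjusted p = 1.21e-07), from 368 ± 25.6 to 106 ± 1.42 CPM (mean ± SD, n = 3). CSTF2 fell by 0.70 (SE 0.0859) and CDK2 rose by 0.52 (SE 0.0784). SLBP, which binds the stem-loop, rose by 0.26 with V2084D (SE 0.0674, adjusted p = 0.0105) and fell by 0.56 with shSTUB1 against V2084D (SE 0.0676, adjusted p = 0.000432). Its level was 123 ± 0.790 CPM in WT, 150 ± 6.53 CPM in V2084D and 102 ± 7.54 CPM with shSTUB1.

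Genes of histone variants that are also expressed outside S phase went both ways. Of 11 tested, 4 rose and 4 fell with V2084D, where 22% of all genes rose and 20% fell. H3-3B, one of the 2 genes of the replacement histone H3.3, rose by 0.57 (SE 0.0657). H2AX, the variant phosphorylated at DNA breaks, fell by 1.01 (SE 0.0983), and CENPA, the centromeric H3, fell by 0.62 (SE 0.0849). Of 21 histone chaperones, 4 rose and 9 fell in the same comparison. Among them SSRP1, a subunit of FACT, fell by 0.82 (SE 0.0586), and RBBP4, which binds H4 in several complexes, rose by 0.61 (SE 0.0538).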

How the data were processed

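RNA was sequenced from 27 samples, 3 in each of 9 groups, taken from the labels. The authors deposited 2 tables of raw read counts per gene, made on GRCh38, and name edgeR without a version, per the submitters' processing notes. The aligner, counting tool, strand setting and annotation are not given in the sources used here. Member and gene lists, and the rule for named genes, were chosen with earlier results of these data known.

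Genes were tested with edgeR 4.0.16 in R 4.3.3 (quasi-likelihood F test, TMM scaling, filterByExpr at a minimum count of 10 and a total of 15), with all groups of a table in 1 fit and both tables joined for the 2 comparisons between lines. Calls required p below 0.05 after adjustment (Benjamini-Hochberg) over every gene in the fit. The biological coefficient of variation was 30.9% in the 293T table, 24.8% in the Huh7 table and 30.3% in both joined. Totals were at least 33429483 counts per library, and members had 3211 to 21551 counts in all. The SE is the absolute log2 difference over the square root of F. Levels are TMM-scaled CPM over all 27 libraries, so a fold in the text can differ slightly from the ratio of printed levels. Of the 66 members, 64 matched GENCODE 29 by identifier and 2 by an older symbol, and 61 matched RefSeq promoters.

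Named members are the 12 highest per length, the highest of each class and, per comparison, up to 6 called in each direction by smallest adjusted p, or up to 4 with the smallest p where none was called. From each list up to 4 genes with the smallest adjusted p were named, besides ARID1A and STUB1. H4C5, H4C8, H3C14, H4C11 and, in V2084D minus WT, SLBP fall outside this rule and were named after their values were seen. Alternatives were DESeq2 1.42.0, size factors by RLE, fitting without any count filter or keeping genes with 1 CPM in at least 3 libraries, a replicate block, fitting the compared groups only, GC and length offsets (alone and with the block), the 2 G2087R libraries with low ARID1A left out, each library left out and a log2 difference of at least 1. The pipeline was tested on simulated data. The labels do not say that replicate numbers mark shared batches. Deviations from the group means correlated above 0.1 for every equal number only in G2087R minus WT in 293T (0.13, 0.18 and 0.32), where the block left 0 members called.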

Additional observations from a re-analysis of the deposited data

Results flagged for a closer look

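The change from WT to V2084D differed between the Huh7-labelled and the 293T libraries for 4 of 51 members tested. This is by the interaction term of the joint edgeR fit, which called 9.72% of all genes, 4.21% lower and 5.5% higher. Without Huh7 V2084D replicate 3, 1 member was called, H2BC12. The log2 difference of the differences was -1.54 for H2BC12, -1.53 for H2AC6, -1.17 for H4C9 and -1.37 for H2BC11, each lower in the Huh7-labelled libraries. H2BC12 kept its call in 21 of 21 alternatives, H2AC6 and H4C9 in 18 of 21 each, and H2BC11 in 9 of 21. H4C9 lies inside the RefSeq span of H2BC12, and whether reads were shared between them was not tested.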

How the results depend on the processing

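The count of members called in each of the 14 comparisons was recomputed 227 times in all, and 211 counts stayed within 1.5 times the reported one. In 293T every reported count was 0, and those that stayed 0 are among the 211. They say little, since almost no gene was called in 293T outside K2025E minus KO. In K2025E minus KO (reported 0) the count was 3 with DESeq2, 5 with the replicate block and 3 with GC and length offsets and the replicate block (1 higher, 2 lower). It was 1 without the G2087R libraries low in ARID1A, and 0 to 4 with single libraries left out. In G2087R minus WT it was 0 to 1 with single libraries left out. A log2 difference of at least 1 left 8 of 14 members in Huh7 V2084D minus WT and 2 of 5 in shSTUB1 minus V2084D. For the difference between lines (reported 4) it was 11 with GC and length offsets, 13 with these and the replicate block, and 1 to 7 with single libraries left out. The offsets alone also called more of all genes there, 17.8% against 9.72% in the reported fit. The share of all genes for the offsets with the block is not given here. The 16 counts that moved came from these comparisons, and the cause was not tested. With single libraries left out it was 11 to 14 in Huh7 V2084D minus WT, 4 to 6 in shSTUB1 minus V2084D, 13 to 16 in shSTUB1 minus WT and 19 to 24 between WT libraries of the lines. The replicate block gave 13, 4, 14 and 22 in these 4 comparisons. Of 916 values of single called members under the alternatives, 839 stayed called, 77 did not and 0 reversed. Members averaging at least 10 counts per library numbered 42 in 293T and 36 in the Huh7-labelled libraries.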
